A study of Rattus norvegicus with 244 samples.

Results

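The heat shock and chaperone genes described here are 7: Hspa5, Hspa13, Hsph1, Hspa8, Hspb1, Hspd1 and Hmox1. They were chosen by name, as the probe sets annotated to these symbols, and are 7 of the 10973 genes that the arrays name. Each gene was followed by its probe set of highest mean signal, with its other probe sets as a check, and all of these probe sets lie on the type A array. Both probe sets of Hspa8 are annotated to Haus8l2 as well, so the values given as Hspa8 belong to neither gene alone.

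The samples were total RNA from the raphe (the serotonergic midline of the hindbrain, whose fibres descend to the cord) and from the somatomotor cortex of rats. Naive rats were compared with rats that had a laminectomy (opening of the spine, called sham here) and with rats that had a moderate spinal cord injury, at 4 h, 24 h, 7 d, 14 d, 28 d and 3 months. The type A arrays held 40 raphe and 43 cortex samples. Per region these were 4 naive samples and, at each of the 6 times, 4 injured and 2 sham samples, except that the raphe at 3 months had 1 sham sample on this array. A few sham samples at 30 min (1 raphe, 2 cortex) and 72 h (1 cortex) stood outside these comparisons. The labels call the naive and sham raphe tissue by a fuller name of the nucleus than the injured raphe tissue, so dissection and injury cannot be told apart in the raphe. Strain, age and sex are not given in the sources used here, and nothing says that samples of a group are separate animals, so p-values measure the spread between these samples.

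Heat shock proteins are chaperones that hold, fold or release other proteins. In the cytosol HSP70 proteins work with J-domain proteins, which bring them clients, and with HSP110 proteins, which exchange their nucleotide. The endoplasmic reticulum and the mitochondrion have chaperones of their own, and heme oxygenase is induced by heat, haem and oxidative stress. Heat shock factors act through repeats of a short element, and the unfolded protein response of the endoplasmic reticulum acts through another.

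The promoters of Hsph1, Hspa13 and Hspa5 are shown because the first 2 carried the differences after injury and Hspa5 is the best known target of the unfolded protein response. They are the 250 bases before the start of each gene in RefSeq (rat build GRCr8), written 5′ to 3′ on the strand of the gene, with matches to the motifs named next in capitals. Hsph1 is on the plus strand at chr12:10427118-10427367, Hspa13 on the minus strand at chr11:27876899-27877148 and Hspa5 on the plus strand at chr3:38452766-38453015.
Hsph1: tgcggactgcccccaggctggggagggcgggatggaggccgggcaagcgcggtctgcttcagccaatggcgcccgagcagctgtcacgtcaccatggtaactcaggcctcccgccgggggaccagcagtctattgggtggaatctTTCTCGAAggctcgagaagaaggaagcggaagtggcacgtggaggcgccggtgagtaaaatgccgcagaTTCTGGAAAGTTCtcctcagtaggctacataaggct
Hspa13: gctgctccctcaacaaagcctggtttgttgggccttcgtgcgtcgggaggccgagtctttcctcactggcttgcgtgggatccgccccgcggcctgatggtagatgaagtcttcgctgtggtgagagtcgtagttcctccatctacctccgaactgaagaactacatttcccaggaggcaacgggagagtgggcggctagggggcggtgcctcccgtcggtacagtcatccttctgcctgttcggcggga
Hspa5: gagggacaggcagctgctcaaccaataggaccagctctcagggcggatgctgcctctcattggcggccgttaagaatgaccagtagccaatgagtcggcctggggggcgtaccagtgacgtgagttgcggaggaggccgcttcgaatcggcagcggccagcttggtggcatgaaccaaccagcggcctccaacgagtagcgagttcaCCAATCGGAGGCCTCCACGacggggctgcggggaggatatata

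A heat shock element of 3 units was searched on both strands as GAA and TTC in turn, starting with either, with 2 bases between units. It was found in 0.663% of 33469 promoters of this length and in those of Hsph1 (1 match), Hspa8 (2) and Hspd1 (2). A pair of such units, which is part of the longer element, was in 13.5% of promoters, among them those of Hsph1, Hspa8, Hspd1 and Hspb1. In Hsph1 the longer match, TTCTGGAAAGTTC, began 36 bases before the start, and a separate pair, TTCTCGAA, began 105 bases before it. The endoplasmic reticulum stress response element was searched as CCAAT and CCACG with 9 bases between, and was in 0.0657% of promoters. Of the 6 members with an entry it was found in Hspa5, as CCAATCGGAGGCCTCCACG, 43 bases before the start. In the window of Hspa13 none of these motifs was found. A match is a description of the sequence and not a measured binding site.

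In the series 5 samples were treated as in doubt, and 4 of these have a type A array. The remaining one, raphe sham at 3 months, replicate 1, has arrays of types B and C only. No array check of it is given here. The ratio of the 3' to the 5' actin control was 29.1 in raphe injured at 4 h, replicate 1, and 1.05 to 2.42 in the rest of the raphe. Cortex sham at 3 months, replicate 1, had a cortex minus raphe marker difference of 0.60 on the log2 scale, against 3.32 to 4.62 in the cortex samples not in doubt. In cortex sham at 14 d, replicate 2, and cortex injured at 7 d, replicate 2, the 5th percentile of the signal was 44.8 and 31.3, against 6.40 to 17.3 in the cortex samples not in doubt. The marker difference in the other raphe samples lay between -2.29 and -0.89, apart from the cortex. Several results that rest on the samples in doubt are given with and without them. Where no value without them is given, as for all marker values, the result includes those that belong to its groups. Correlations over 79 samples leave them out. Signals below are the deposited intensities, and differences are of log2(signal + 32), which understates the changes of weak genes.

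Across the 6 times, 2 of the 7 genes differed between injured and sham raphe (limma, adjusted p of at most 0.05): Hspa13 was higher and Hsph1 was lower. With the replicate number as a block neither passed (adjusted p = 0.085 and 0.089), where 0.208% of probe sets did. Without the block 0.946% of 18716 probe sets passed, 0.641% as higher and 0.305% as lower. In the cortex 0 of 7 passed over the 6 times, where 0.133% of 18769 probe sets did, and none had an unadjusted p under 0.05, against 11.4% of probe sets. The median difference of the 7 genes was -0.13 in the raphe and -0.12 in the cortex, against 0.00 for all probe sets in each. The same 2 raphe genes passed without the samples in doubt (Hspa13 0.84, adjusted p = 0.0027, and Hsph1 -0.45, adjusted p = 0.012), where 4.73% of probe sets did. At single times 1 member passed in the raphe, Hspa13 at 7 d, and none in the cortex. The share of all probe sets that passed was 0.15% at 4 h, 0.00534% at 24 h, 0.801% at 7 d, 0.0374% at 14 d, 0.0% at 28 d and 0.614% at 3 months in the raphe. In the cortex it was 0.016%, 0.0426%, 0.368%, 1.81%, 0.0% and 2.47% in the same order, and 0 to 2 members per time had an unadjusted p under 0.05 there, against 3.18% to 18.9% of probe sets. In the raphe 2 members were under 0.05 at 24 h, 2 at 7 d and 3 at 28 d, and 0 at the other times. The share of all probe sets was 4.36%, 12.8% and 6.8% at these times, and 6.45% to 13.7% at the others.

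Separation of the injured from the sham samples, with only 2 sham samples per time, was common among all probe sets. In the raphe the 2 groups did not overlap for 0 of the 7 genes at 4 h (15.5% of all probe sets), 3 at 24 h (16.1%), 5 at 7 d (36.1%), 3 at 14 d (22.6%) and 5 at 28 d (25.9%). At 3 months, against a single sham sample, 1 did not (30.3%). In the cortex the counts were 2 at 4 h (26.3%), 3 at 24 h (17.4%), 1 at 7 d (17.5%), 2 at 14 d (18.5%), 0 at 28 d (9.54%) and 2 at 3 months (26.4%).

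**Figure D1:**
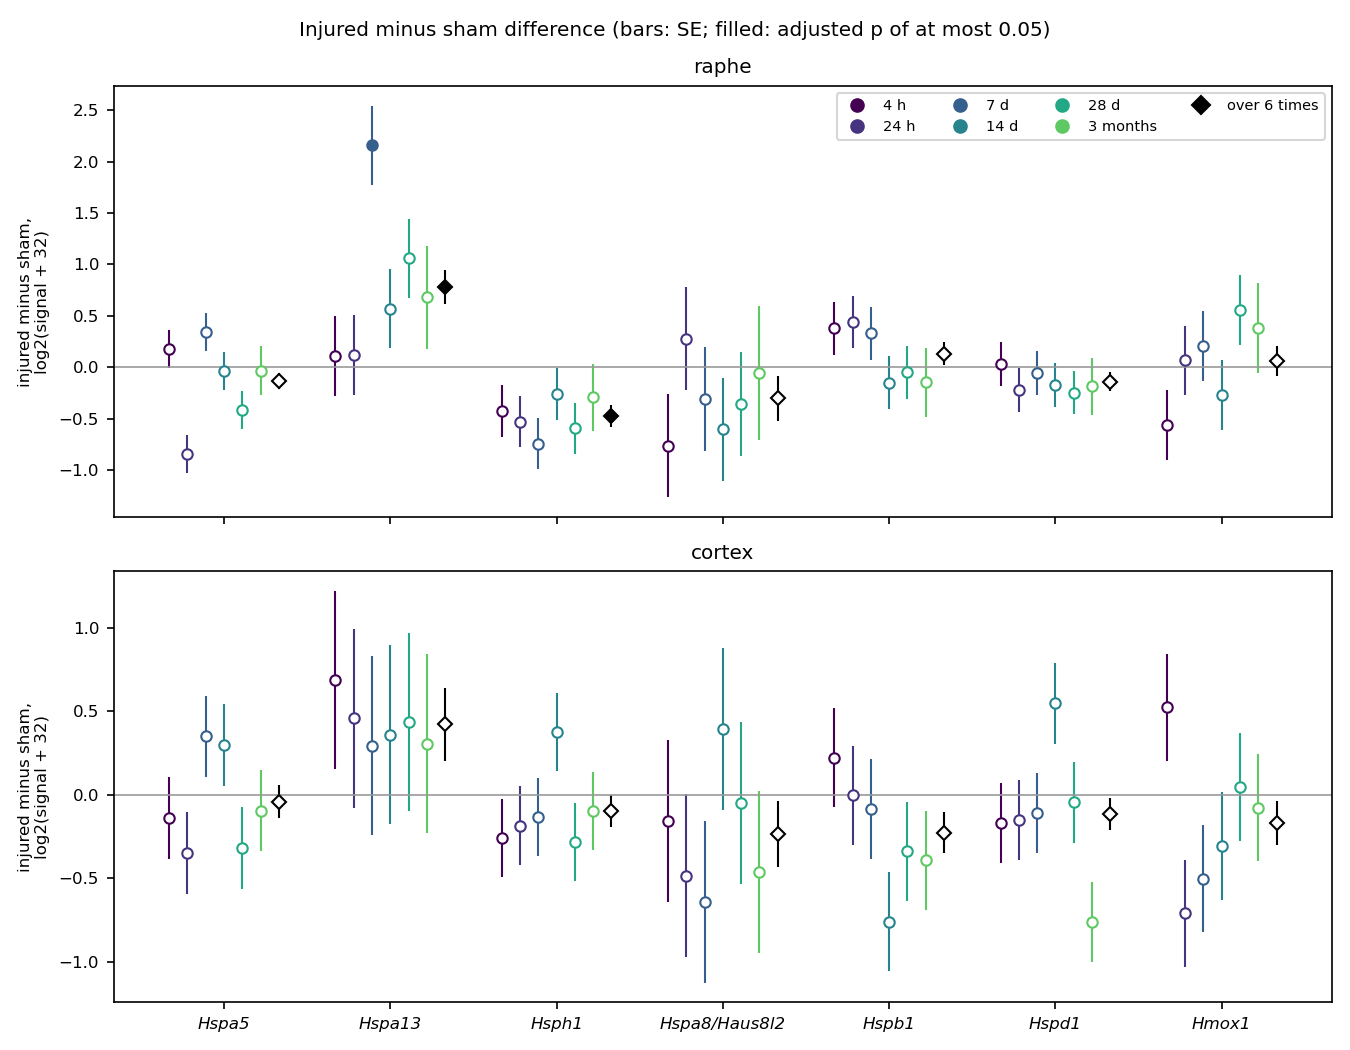
Injured minus sham difference of each of the 7 genes at 6 times (coloured circles) and over the 6 times (black diamonds), on the log2(signal + 32) scale, in raphe and cortex, with SE bars. Filled symbols passed an adjusted p of 0.05: Hspa13 at 7 d (2.16) and over 6 times (0.78) and Hsph1 over 6 times (-0.47), all in the raphe.

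Hspa13 (also called Stch) is an HSP70 relative of the endoplasmic reticulum that has the ATPase part but lacks the part that binds clients. At 7 d its raphe signal was 45.1 and 45.9 in the 2 sham samples and 346, 261, 260 and 409 in the 4 injured samples. The groups did not overlap, as was so for 36.1% of probe sets at that time. The difference was 2.16 ± 0.39 (SE, adjusted p = 0.0047), where 0.801% of probe sets passed and 0.497% passed as higher, and without the samples in doubt its adjusted p was 0.00083. Both sham values at 7 d were below the 4 naive values (72.9, 196.8, 72.4 and 101.6), so the gap holds a low sham level as well as a high injured one. They also lay below the 40th percentile of their arrays (158.1 and 149.1), near background, where the size of a difference depends on the constant added before log2. It was 1.35 with a constant 4 times as large and 2.76 with 1 added, and passed with each (adjusted p of at most 0.0078). The arrays differed as well, with a 5th percentile of 13.5 and 12.5 in sham and of 8.12 to 9.28 in injured samples. Whether this bears on the difference was not tested.

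Over the 6 times the 11 sham raphe samples had a Hspa13 signal of 34.9 to 194.8 with a median of 151.9. The 24 injured samples ran from 50.0 to 408.7 with a median of 202.4. The difference was 0.78 ± 0.17 (adjusted p = 0.018), and 21 of 24 injured samples lay above the sham mean of their time. It was 0.50 with a constant 4 times as large and 0.99 with 1 added (adjusted p = 0.019 for each). By time it was 0.11 at 4 h, 0.12 at 24 h, 2.16 at 7 d, 0.57 at 14 d, 1.06 at 28 d and 0.68 at 3 months. Of these, the 7 d value alone passed. The lowest injured sample, at 50.0, was the 4 h sample in doubt, and without it the other 4 h samples were at 191.6, 185.2 and 128.6 against sham at 86.3 and 151.9.

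At 28 d the sham samples of Hspa13 were far apart, at 177.3 and 34.9, and the injured ones lay at 247.0, 188.5, 293.0 and 152.3. Without the lower of them, sham at 28 d replicate 2, the difference over 6 times was 0.65 with an adjusted p of 0.055. Without sham at 7 d replicate 2 the 7 d difference was 2.16 with an adjusted p of 0.064. Against naive raphe, injured raphe was higher by 0.82 ± 0.24 and did not pass (adjusted p = 0.057), with 23 of 24 samples above the naive mean. There 3.05% of probe sets passed. It passed without the samples in doubt (0.88, adjusted p = 0.0090), where 11.2% of probe sets did.

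The Hspa13 probe set is weak. It exceeded the 40th percentile of the array, the floor for testing, on 28 of 40 raphe and 23 of 43 cortex arrays, and it is the only one for the gene. In the cortex the signal ran from 14.2 to 144.6 in the naive samples, from 38.8 to 262.9 in sham (median 131.6) and from 33.6 to 347.4 in injured samples (median 196.6). All 6 injured minus sham differences in the cortex were above 0, from 0.29 to 0.69. Over the 6 times the cortex difference was 0.42 ± 0.22 (adjusted p = 0.47), with 20 of 24 samples above the sham mean. The injury effect in raphe minus that in cortex was 0.36 ± 0.28 (adjusted p = 0.79, 95 percent interval -0.21 to 0.93), so the raphe result was not shown to be larger than the cortex one.

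**Figure D2:**
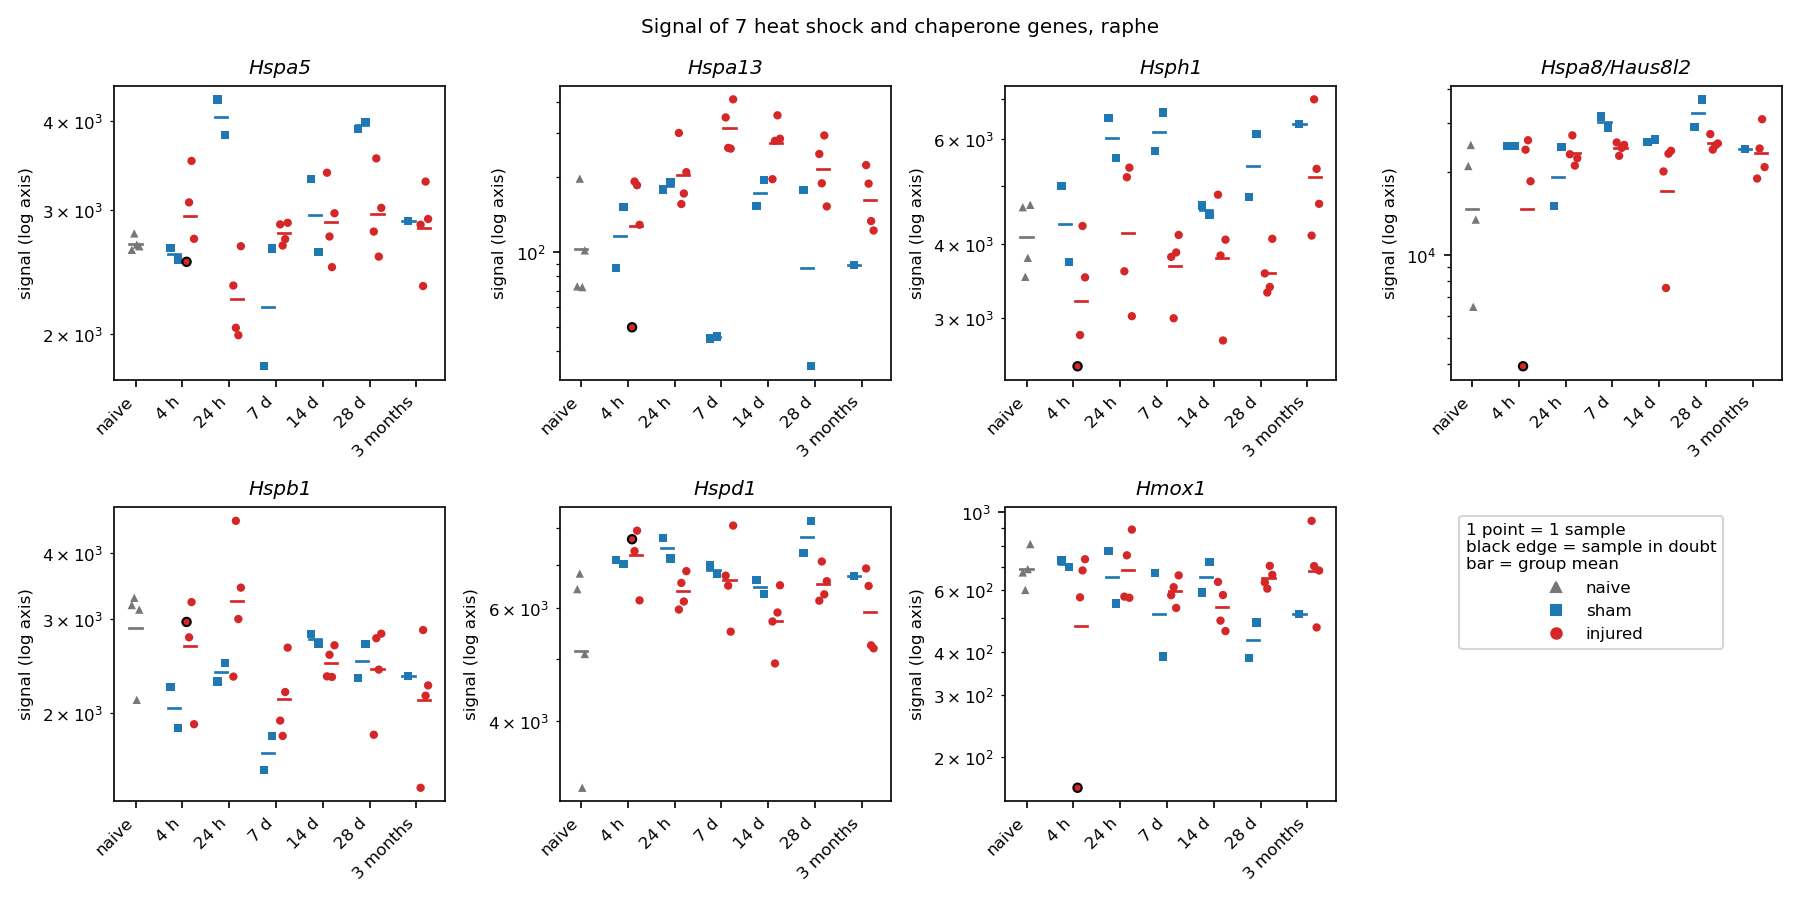
Deposited signal (log axis) of the 7 genes in raphe samples, naive (grey triangles) and at 6 times after laminectomy (blue squares) or injury (red circles). Each point is 1 sample, each bar a group mean on the log2(signal + 32) scale, and a black edge marks the sample in doubt. Hspa13 at 7 d and Hspa5 at 24 h show no overlap between sham and injured. The same holds for other members at these times, and for 36.1% of all probe sets at 7 d and 16.1% at 24 h.

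Hspa5 (BiP, GRP78) is the main HSP70 of the endoplasmic reticulum and holds the sensors of the unfolded protein response inactive. At 24 h it was 4294.7 and 3825.8 in sham raphe and 2343.3, 2042.3, 1993.6 and 2663.4 in injured raphe. The groups did not overlap, as in 16.1% of probe sets, and the naive samples lay between 2632.0 and 2776.4. The difference of -0.84 ± 0.18 did not pass (adjusted p = 0.12), at a time when 0.00534% of probe sets passed. In the fit without the samples in doubt, none of which is at 24 h in the raphe, the spread of the fit was smaller and the same -0.84 passed (adjusted p = 0.040), where 0.0756% of probe sets did.

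The 24 h sham values of Hspa5 were among its highest in the raphe, together with those at 28 d (3903.7 and 3992.5). At 28 d the injured samples were lower too, at 2793.2, 3544.3, 2574.7 and 3017.1, with a difference of -0.41 ± 0.18 (adjusted p = 0.68). At 7 d the order was the opposite: sham was at 1802.0 and 2644.2, injured at 2669.4 to 2874.2, and the difference was 0.34 ± 0.18 (adjusted p = 0.45). A test of whether this difference varied with time gave an F of 5.42 (adjusted p = 0.17) for Hspa5, and 0.0% of raphe probe sets passed that test. Over the 6 times the difference was -0.13 ± 0.08 (adjusted p = 0.45).

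The other testable probe set of Hspa5 did not follow the same course. At 24 h its injured minus sham difference was -0.25 ± 0.34, and at 7 d it was 1.21 ± 0.34 (adjusted p = 0.078). Against naive raphe it was higher by 1.17 ± 0.23 in sham (adjusted p = 0.0072) and by 1.36 ± 0.21 in injured samples (adjusted p = 0.00035). The main probe set gave 0.17 and 0.04 for the same comparisons. Their correlation over 79 samples was 0.37, so the Hspa5 results hold for single probe sets. The remaining one was near background and was not tested.

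Hsph1 (HSP105) is an HSP110 protein, which releases nucleotide from HSP70. Its signal in the raphe ran from 3726.8 to 6641.3 in the 11 sham samples (median 5569.3), from 2489.1 to 6983.6 in the 24 injured samples (median 3842.1) and from 3517.7 to 4645.5 in the 4 naive ones (median 4194.1). Sham samples stood high, and the injured samples lay around the naive level. The injured minus sham difference was -0.47 ± 0.11 (adjusted p = 0.026), with 22 of 24 injured samples below the sham mean of their time.

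This difference in Hsph1 was below 0 at all 6 times: -0.43 at 4 h, -0.53 at 24 h, -0.74 at 7 d, -0.26 at 14 d, -0.59 at 28 d and -0.29 at 3 months. No single time passed. At 7 d, where the gap was widest, sham was at 5715.0 and 6641.3 and injured at 3798.7, 2996.6, 3864.2 and 4134.6 (adjusted p = 0.17). At 24 h sham was at 6503.2 and 5569.3 and injured at 3593.5, 5168.6, 5363.5 and 3020.7. The groups did not overlap at 24 h, 7 d and 28 d, and overlapped at the other times. Across all probe sets 16.1%, 36.1% and 25.9% had no overlap at those 3 times.

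Against naive raphe, Hsph1 was 0.39 ± 0.17 higher in sham (adjusted p = 0.27) and 0.08 lower in injured samples (-0.08 ± 0.16, adjusted p = 0.86). Neither passed, where 1.35% of probe sets passed for sham and 3.05% for injured. The injured against sham call was lost (adjusted p of 0.057 to 0.070) when any of 4 sham samples was left out: 4 h replicate 1, 14 d replicate 1, 24 h replicate 1 or 28 d replicate 2. A second, weak probe set (mean signal 175 against 4334) gave 0.32 ± 0.21 (adjusted p = 0.51), and its correlation with the main one was -0.09. In the cortex the difference was -0.10 ± 0.10 (adjusted p = 0.74). The regional difference of the injury effect, -0.38 ± 0.14, did not pass (adjusted p = 0.43), where 0.0206% of probe sets did.

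Hspa13 and Hsph1 ran against each other over the samples. With each region centred, their correlation was -0.57 over 39 raphe samples and -0.36 over 40 cortex samples, the lowest of the 21 pairs of members. These points share the array and its scaling. Only the region mean was taken out, so the injured minus sham differences given above remain in these values. The correlation is therefore no separate result. At 7 d, where the Hspa13 difference passed and that of Hsph1 was widest, the summed signals of 5 marker lists did not overlap between the groups either. Of single probe sets 36.1% did not overlap at that time, a share that was not taken for sums over genes. Lists for cortex, neurons, endothelium and mural cells, choroid plexus, and meninges and fibroblasts were kept as well. The sums of these at 7 d are not given. The sum over 10 microglia and macrophage markers was 10210 to 10677 in sham and 13963 to 15596 in injured raphe, with 11 of 14 tested markers higher and 0 passing. The sum over 6 oligodendrocyte markers was 75055 to 78224 in sham and 60176 to 64763 in injured samples, with 4 of 9 higher and 1 passing as lower. The sum over 5 astrocyte markers was 58449 to 62759 in sham and 43607 to 50875 in injured samples, with 2 of 9 higher and 0 passing. That over 3 erythroid markers was 31257 to 36924 and 14597 to 27868, with 0 of 5 higher and 1 passing as lower. The sum over 9 raphe and brainstem markers was 9614 to 9936 in sham and 10441 to 12016 in injured samples, with 10 of 14 higher and 0 passing. Their part in the result was not tested. In bulk tissue, fewer cells of a type and less RNA per cell cannot be told apart.

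Over the 6 times, 9 of 10 meningeal and fibroblast markers were higher in injured raphe, with a median of 0.35 and 0 passing. The sum over the 7 of them on type A ran from 8118 to 12933 in sham and from 7877 to 28923 in injured samples, and was 14787 to 20792 in naive ones. Whether this bears on Hspa13 or Hsph1 was not tested.

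Hspa8 (HSC70) is the constitutive HSP70 of the cytosol, which also strips clathrin from vesicles. The signal of its main probe set, shared with Haus8l2, was 13040 to 36650 in 77 of the 83 samples. It did not pass in any injured against sham comparison. Over 6 times the difference was -0.30 ± 0.22 in the raphe (adjusted p = 0.56) and -0.23 ± 0.20 in the cortex (adjusted p = 0.70). Against naive raphe it was 0.82 ± 0.34 higher in sham (adjusted p = 0.25, 11 of 11 samples above the naive mean), while the second probe set gave -0.19 ± 0.51. Without raphe naive replicate 3 the 0.82 became 0.43.

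The wide error of Hspa8 came with 6 samples of 3014.6 to 10490.7. These were cortex injured at 7 d replicate 4 (3014.6), raphe injured at 4 h replicate 1 (3930.8), raphe naive replicate 3 (6463.8), cortex naive replicate 1 (7196.3), raphe injured at 14 d replicate 2 (7565.9) and cortex injured at 24 h replicate 3 (10490.7). They were singled out after their values were seen. In 4 of them the second probe set, for the same 2 genes, stayed at 17377 to 26125, inside its range of 11018 to 29529 in the other 77 samples. It was 9607 in raphe injured at 14 d replicate 2 and 591 in raphe injured at 4 h replicate 1. Over 79 samples the 2 probe sets had a correlation of 0.25.

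The genes most like Hspa8 over those 79 samples were Cox7a2l (r = 0.90), Ndufb9 (0.87) and Cox6a1 (0.87), all named for parts of the respiratory chain. In the same 6 samples Ndufb9 was at 601 to 3292, against 3217 to 15752 in the others. Cox6a1 was at 3136 to 9347 against 7858 to 18780. Cox7a2l was at 479 to 1344 in 5 of them and at 9882 in raphe injured at 4 h replicate 1, against 1417 to 5288. These 3 genes were chosen by their correlation with this probe set over samples that include 5 of the 6, so their low values there are a description and no independent result.

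**Figure D3:**
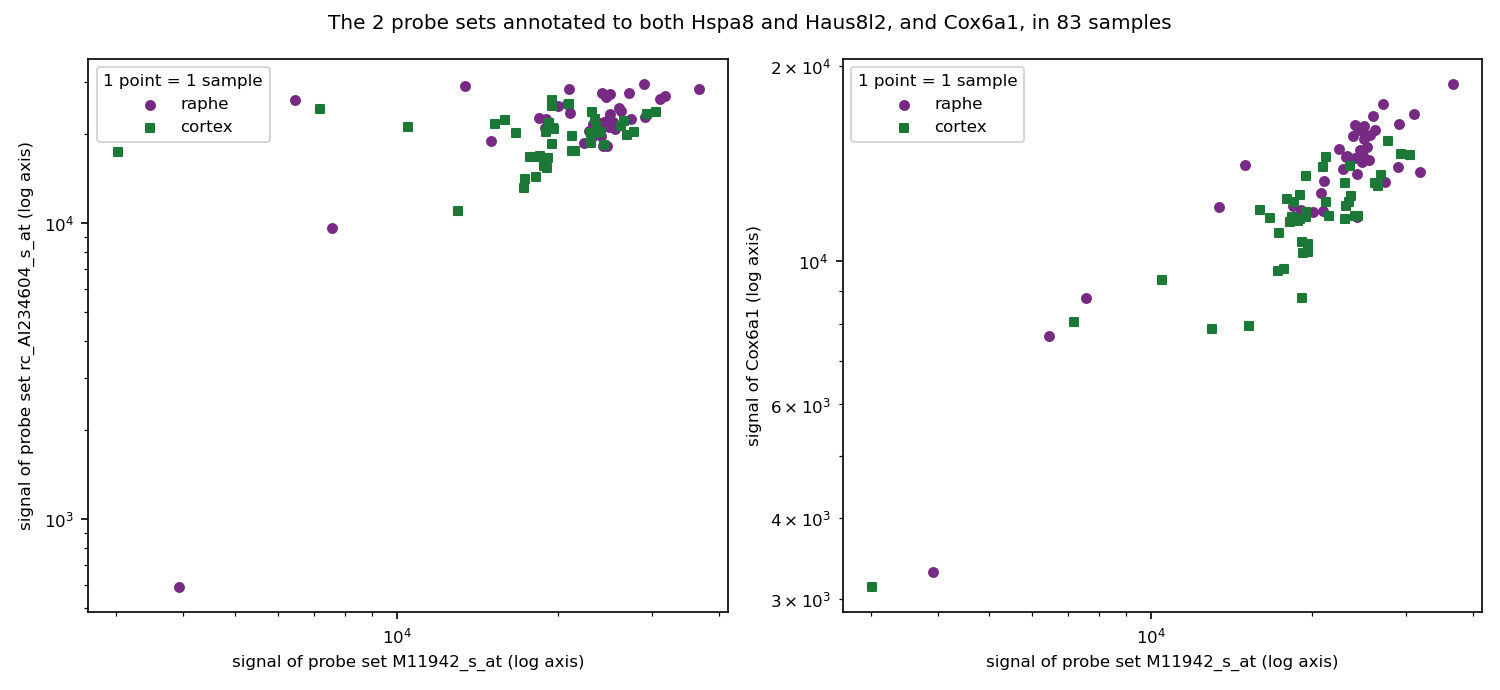
Left, signal of the 2 probe sets annotated to both Hspa8 and Haus8l2 in 83 samples (log axes); right, the main probe set against Cox6a1. Raphe samples are circles and cortex samples squares; 4 of the 6 samples with a main signal of at most 10490.7 have a second probe set at 17377 or more, and Cox6a1 is at most 9347 in all 6.

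Hspb1 (HSP27) is a small heat shock protein that holds unfolding proteins and guards actin filaments. It passed between the naive regions and in no comparison of treatments. The 4 naive raphe samples were at 3191.6, 3294.1, 2116.2 and 3129.4 and the 4 naive cortex samples at 1050.7, 1213.1, 1232.8 and 993.4. All raphe values lay above all cortex ones, with a difference of 1.35 ± 0.23 (adjusted p = 7.5e-06), a 2.54-fold level. Hspb1 and Hmox1 were the 2 of 7 members that passed between naive regions, where 14.2% of 19453 probe sets did, 6.65% as higher in the raphe and 7.59% as lower. Of the 4 other probe sets of Hspb1, 2 gave 1.40 ± 0.25 and 2.01 ± 0.29 and passed. Another gave -0.22 ± 0.33 and the last, shared with Asb2, -0.03 ± 0.24.

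After injury Hspb1 did not pass at any time in either region. The raphe differences were 0.38 at 4 h, 0.44 at 24 h and 0.33 at 7 d, then -0.15, -0.05 and -0.15. At 24 h the raphe samples were 2290.6 and 2483.4 in sham and 2340.5, 4598.6, 3004.6 and 3442.3 in injured, so 1 injured sample lay among the sham ones. In the cortex at 14 d sham was at 1601.8 and 2086.3 and injured at 912.4 to 1199.9 (-0.76 ± 0.30, adjusted p = 0.16). The higher of these sham values is a sample in doubt, and without it, against 1 sham sample, the difference was -0.57. For Hspb1 the injury effect in raphe minus that in cortex was 0.36 ± 0.17 (adjusted p = 0.55). Against naive samples, sham cortex was 0.52 ± 0.20 higher (adjusted p = 0.22) and sham raphe 0.35 lower (-0.35 ± 0.17, adjusted p = 0.35).

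Hspd1 (HSP60) is the chaperonin of the mitochondrial matrix. Raphe signals ran from 3152.3 to 8206.6 (median 6590.2, 40 samples) and cortex signals from 1826.8 to 7090.5 (median 3894.2, 43 samples). In naive rats the difference of 0.43 ± 0.18 did not pass (adjusted p = 0.11), with 3 of 4 raphe samples above the cortex mean. The exception was raphe naive replicate 3 at 3152.3, one of the 6 samples low for Hspa8, and without it the difference was 0.67 (adjusted p = 0.0081). With array quality weights it was 0.45 and passed (adjusted p = 0.041). Over 13 matched groups (naive, and sham and injured at each time), a comparison added after the data were seen, it was 0.72 ± 0.06 (adjusted p = 2.1e-15). In that comparison 53.1% of probe sets passed, 26.1% as higher and 27.0% as lower, and 4 members passed as higher: Hspd1, Hspb1 (0.71), Hmox1 (0.59) and Hspa5 (0.41).

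Injury was followed by no call in Hspd1. In the raphe the differences ran from -0.24 to 0.03 and were -0.14 ± 0.09 over 6 times (adjusted p = 0.50). In the cortex at 3 months sham was at 7090.5 and 4699.5 and injured at 2454.7, 4212.3, 3693.4 and 3462.1. The groups did not overlap, as in 26.4% of probe sets, and the difference of -0.76 ± 0.24 did not pass (adjusted p = 0.077). The highest value, 7090.5, is the sham sample whose markers stood apart. Without it, against 1 sham sample, the difference was -0.47, and with it as the only sham sample the difference was -1.06. Raphe sham exceeded naive by 0.45 ± 0.14 (adjusted p = 0.11) with 11 of 11 samples above the naive mean, and without the samples in doubt that value passed (adjusted p = 0.047), as did Hspa8 (adjusted p = 0.049), where 6.12% of probe sets did. Without raphe naive replicate 3 it was 0.22 (adjusted p = 0.53).

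Hspd1 and Hspa8 moved together more than any other pair of members, with a correlation of 0.69 over 79 samples (0.71 in raphe, 0.68 in cortex). The array scaling and the low samples above are shared by both. A second Hspd1 probe set had a correlation of 0.59 with the main one.

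Hmox1 (heme oxygenase 1) opens the haem ring and is a stress-induced antioxidant enzyme. Naive raphe was at 673.4, 600.4, 688.6 and 811.6 and naive cortex at 358.8, 224.1, 396.7 and 491.0, with no overlap. The difference was 0.90 ± 0.27 (adjusted p = 0.016), a 1.86-fold level. It did not pass without cortex naive replicate 2 (0.70, adjusted p = 0.11) or without raphe naive replicate 4 (0.82, adjusted p = 0.054). A weak second probe set, with a mean signal of 110, gave -0.13 ± 0.35 in naive rats and 0.88 ± 0.12 over the 13 matched groups. Of 5 tested erythroid markers, genes of red blood cells, 4 passed as higher and 1 as lower in naive raphe. Their part in the Hmox1 result was not tested.

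Hmox1 showed no call after injury. Over the 6 times the difference was 0.06 ± 0.15 in the raphe (interval -0.23 to 0.36) and -0.17 ± 0.13 in the cortex (-0.44 to 0.10). At 4 h the raphe samples were 729.0 and 697.6 in sham and 163.4, 571.7, 682.5 and 734.7 in injured. The value of 163.4 is the sample in doubt, and the difference was -0.56 with it and -0.11 without it. In the cortex at 24 h all 4 injured samples (369.3, 403.3, 329.4 and 156.4) lay below both sham samples (529.6 and 487.6), with a difference of -0.71 ± 0.32 (adjusted p = 0.69). The first 2 of these injured arrays are described as 4 h in the labels, and without them the difference was -1.05 (adjusted p = 0.47).

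**Figure D4:**
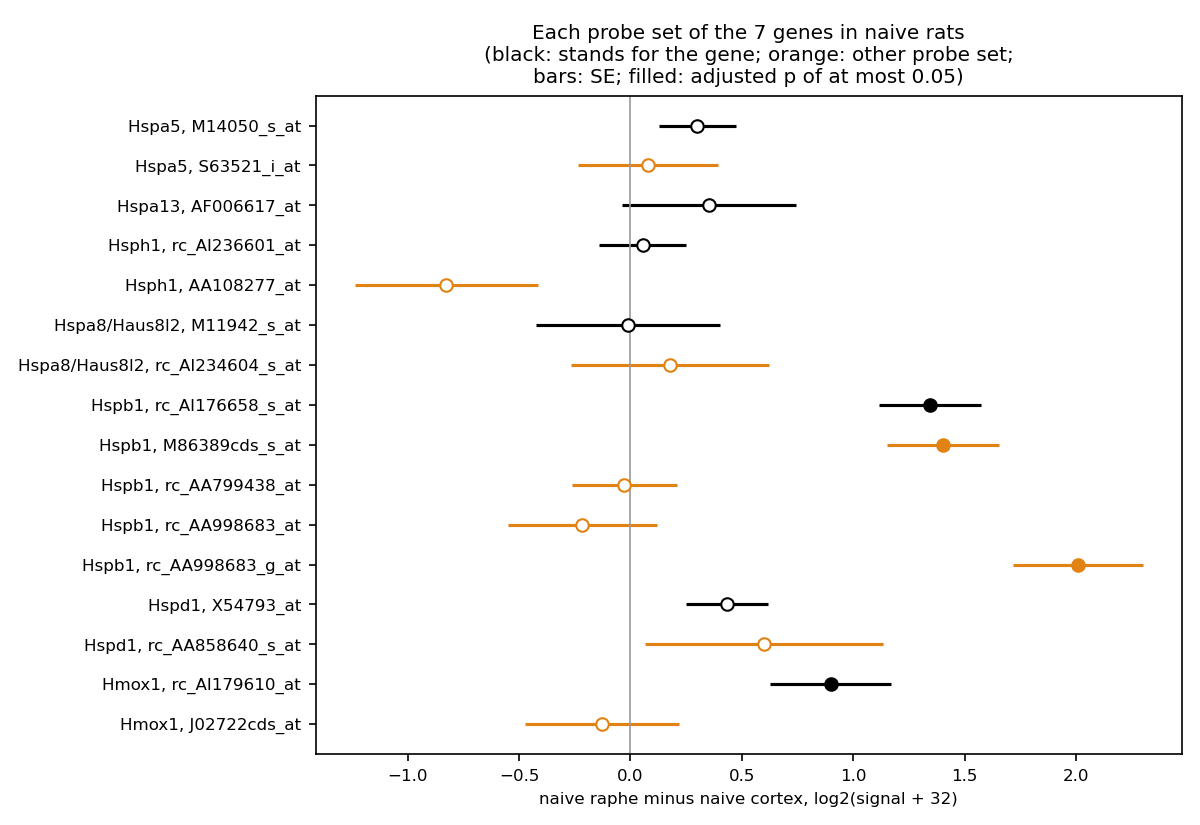
Naive raphe minus naive cortex difference on the log2(signal + 32) scale for every tested probe set of the 7 genes (4 samples per region, SE bars). Black circles stand for the gene, orange ones are its other probe sets and filled ones passed an adjusted p of 0.05: 3 of 5 Hspb1 probe sets and 1 of 2 for Hmox1.

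Laminectomy alone gave 0 calls among the 7 genes against naive rats in limma, in raphe (3 with an unadjusted p under 0.05: Hspa8, Hspd1 and Hsph1, all higher) or cortex (1: Hspb1). There 1.35% of raphe and 0.49% of cortex probe sets passed, and 14.6% and 13.8% had an unadjusted p under 0.05. Injured against naive samples gave 0 calls as well, in raphe (2 under 0.05: Hspa13 and Hspd1) and in cortex (1: Hspa13, 0.95 ± 0.33, adjusted p = 0.12), where 3.05% and 2.00% of probe sets passed and 16.9% in each region had an unadjusted p under 0.05. Both comparisons share the naive samples, and each shares its sham or its injured samples with the injured against sham one. The time course of injured samples gave 0 calls in both regions in limma, with 2 members under 0.05 in the raphe and 0 in the cortex, where 0.486% and 1.1% of probe sets passed and 18.3% and 15.5% were under 0.05. The test of whether injured minus sham varied with time gave 0 calls, with 2 and 1 members under 0.05, where 0.0% and 0.97% passed and 10.5% and 17.8% were under 0.05. For the injury effect in raphe minus that in cortex there were 0 calls and 2 members under 0.05, Hsph1 and Hspb1, as were 8.49% of probe sets.

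**Figure D5:**
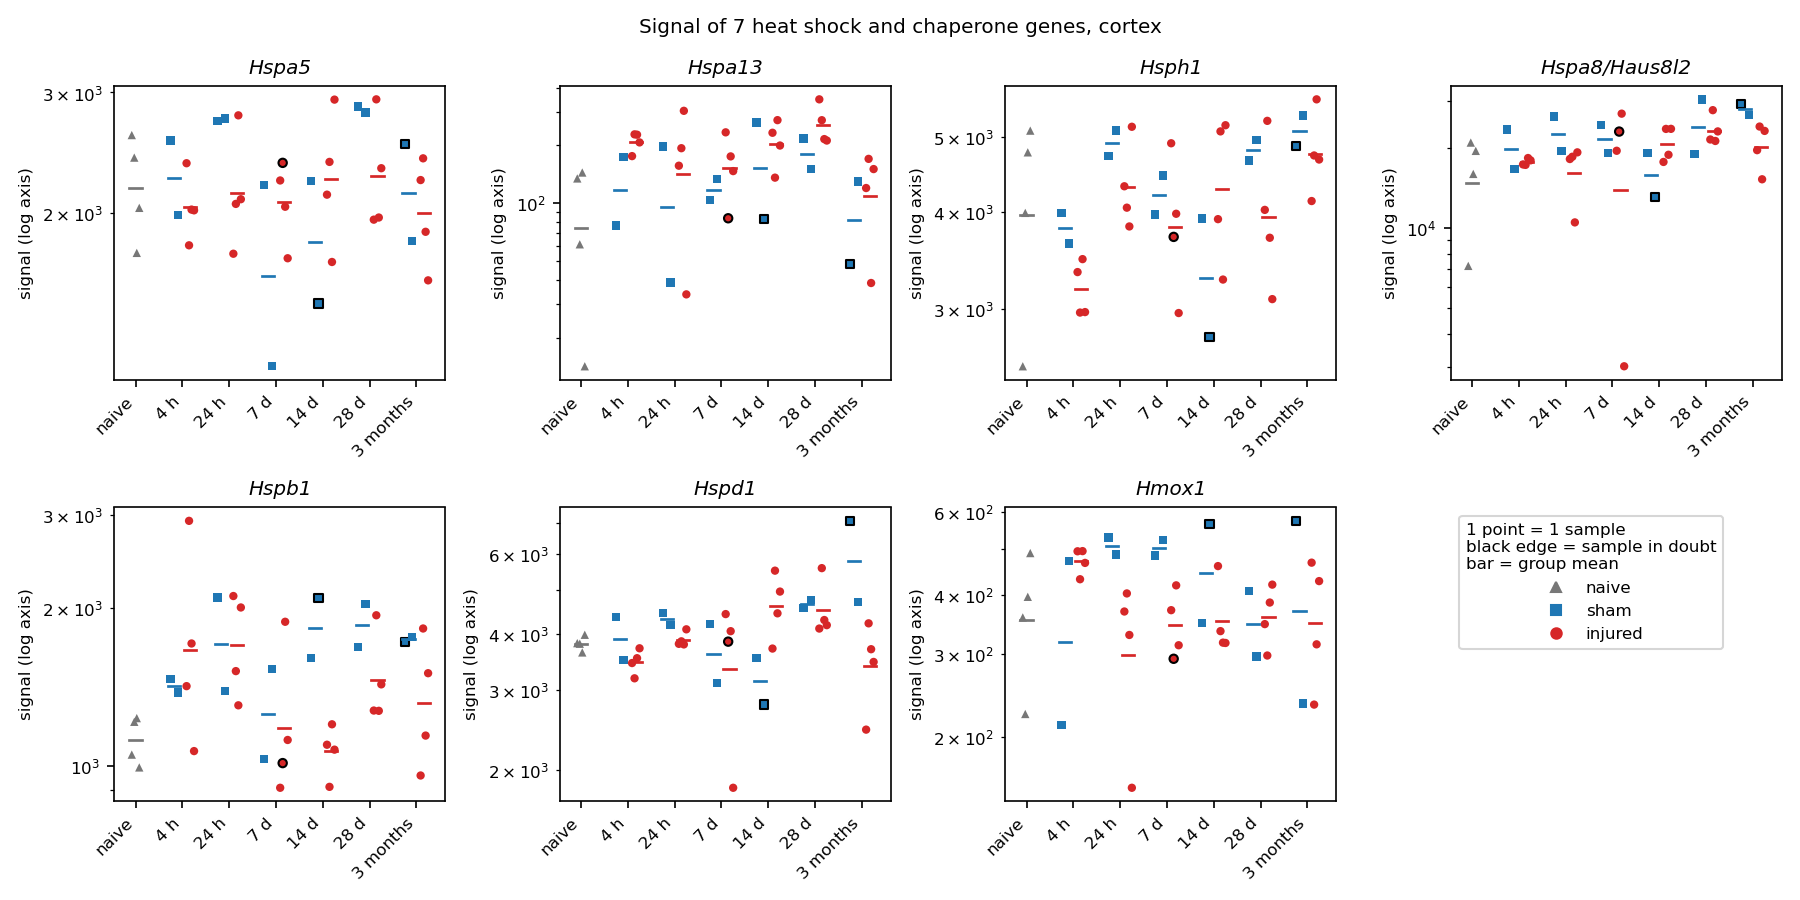
Deposited signal (log axis) of the 7 genes in cortex samples, naive (grey triangles) and at 6 times after laminectomy (blue squares) or injury (red circles), with bars at group means and black edges on the 3 samples in doubt. No injured minus sham difference passed. Hspd1 at 3 months and Hspb1 at 14 d do not overlap (-0.76 each), and each has its highest value in a sham sample in doubt. Of all probe sets 26.4% at 3 months and 18.5% at 14 d do not overlap.

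Around the members, 140 genes of the same systems were listed, of which 117 could be tested in the raphe and 115 in the cortex. Over the 6 times 0 of 117 passed in injured raphe, where 0.946% of probe sets did, and 26 had an unadjusted p under 0.05, as did 15.1% of all probe sets. The nearest were Dnajb6, a J-domain partner of HSP70 (-0.54 ± 0.14, adjusted p = 0.050014), and Blvra, which reduces the biliverdin made by heme oxygenase (-0.33 ± 0.09, adjusted p = 0.066). When the samples in doubt were left out 6 passed, where 4.73% of probe sets did. Of these 5 were lower: Dnajb6, Blvra, Dnajc1, the chaperonin subunit Cct7 and the heat shock factor Hsf1. The mitochondrial unfoldase Clpx was higher.

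At 7 d, where Hspa13 was higher in injured raphe, Dnajb6 was lower by 1.68 (-1.68 ± 0.34, adjusted p = 0.014) and was the 1 of 117 that passed, where 0.801% of probe sets did and 0.305% passed as lower. Of 36 genes of the endoplasmic reticulum and the unfolded protein response, 0 passed and 20 were higher, with a median of 0.15 against 0.00 for all probe sets. In the fit without the samples in doubt 6 of 117 passed at 7 d, 2 of them higher (Calr, a chaperone of the endoplasmic reticulum, and Txnrd1) and 4 lower, where 4.71% of probe sets did.

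Against naive raphe, Dnajb11, a J-domain partner of Hspa5 in the endoplasmic reticulum, was higher in sham (1.15 ± 0.13, adjusted p = 1.0e-05) and in injured samples (0.97 ± 0.13, adjusted p = 3.1e-05). It was the 1 of 117 that passed for sham (0.839% of probe sets passed as higher), and 1 of 5 for injured (2.22% as higher and 0.823% as lower), with Pfdn5 (0.76), Txnrd1 (0.66) and Sod2 (1.24) higher and Cct7 (-0.54) lower. With the samples in doubt left out the counts were 11 and 20, where 6.12% and 11.2% of probe sets passed.

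In the cortex the injured against sham calls lay at 14 d and 3 months, where a sham sample was in doubt. At 14 d, 2 of 115 passed, both of the unfolded protein response: Xbp1 (1.94 ± 0.47) and Sel1l (1.32 ± 0.33). At 3 months 8 passed, 1 higher (Ppid, 1.17 ± 0.23) and 7 lower. Gclm, for glutathione synthesis (-1.70 ± 0.41), and the small heat shock proteins Cryab (-1.14 ± 0.28) and Hspb8 (-0.82 ± 0.22) were among these. Of all probe sets 1.13% passed as higher and 0.677% as lower at 14 d, and 1.52% and 0.943% at 3 months. With those samples left out 1 sham sample remains at each time, so whether these calls hold without them cannot be told. The marker values that follow include the sham samples in doubt and are not given without them. At 3 months 1 of the 2 sham samples is the one whose cortex minus raphe marker difference was 0.60. At that time 0 of 9 tested oligodendrocyte markers were higher in injured cortex, with a median of -0.85 and 3 passing as lower. The sum over 6 of them was 29114 to 62332 in sham and 19347 to 24158 in injured samples. The sums of 3 other marker lists were also lower in injured cortex without overlap. The astrocyte sum was 50230 to 59567 in sham and 38353 to 46513 in injured samples (1 of 9 higher, 0 passing). That of endothelium and mural cells was 4404 to 4752 and 2726 to 3974 (3 of 11 higher, 0 passing). That of neurons was 16873 to 57752 and 13700 to 16153 (3 of 10 higher, 2 passing as lower). At 14 d the astrocyte sum (28492 to 35951 in sham and 38817 to 57608 in injured samples) and the oligodendrocyte sum (19673 to 23193 and 24374 to 29869) were higher without overlap. Of single probe sets, 26.4% at 3 months and 18.5% at 14 d did not overlap in either direction. That share was not taken for sums over genes, and the sums of the remaining marker lists are not given. The part of these markers in the result was not tested. Against naive cortex 3 of 115 passed in injured samples, where 1.05% of probe sets passed as higher and 0.948% as lower: the inducible HSP70 gene Hspa1a (0.52 ± 0.13) and Herpud1 of the unfolded protein response (0.57 ± 0.15) were higher and the prefoldin subunit Pfdn2 was lower (-0.51 ± 0.13). Sham cortex was higher than the same naive samples in Hspa1a by a similar 0.48 ± 0.14, which did not pass (limma, adjusted p = 0.10).

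Between naive regions 23 of 117 listed genes passed, 22 higher and 1 lower in the raphe, where 6.65% of probe sets passed as higher and 7.59% as lower. Beside Hspb1, its relative Hspb8 was higher in the raphe (1.19 ± 0.19), as was Bag3 (2.18 ± 0.32), the co-chaperone that works with Hspb8. Fkbp4 (0.76), Sdf2l1 (1.01) and Dnajb2 (0.76) were higher too, and Dnajb5 was lower (-1.52 ± 0.18). The median of the 117 was 0.20 against 0.00 for all probe sets. When the samples in doubt were left out 33 passed, 31 of them higher, where 20.5% of probe sets did. In the same comparison 9 of 9 oligodendrocyte markers were higher, with a median of 0.86 and 6 passing. The sum over 6 of them was 59934 to 65138 in naive raphe and 25799 to 35707 in naive cortex. The sum over 5 neuron markers was 47911 to 58524 in raphe and 12995 to 16205 in cortex, with 6 of 10 tested higher, 3 passing as higher and 2 as lower. The sum over 3 erythroid markers was 36079 to 39162 and 15385 to 23009. The sums of choroid plexus markers (4298 to 7615 and 2826 to 3348) and of meninges and fibroblast markers (14787 to 20792 and 11388 to 13656) were also higher in naive raphe without overlap, with 0 of their tested markers passing. Their part in these differences was not tested. The sums of the remaining marker lists are not given.

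The genes on the type A array most like each member were taken by correlation of the region-centred log2 signal over 79 samples and are given as a description. For Hspa5 they were the chaperones Dnajb1 (r = 0.59) and Serpinh1 (0.55), the latter the collagen chaperone of the endoplasmic reticulum, and Nktr (0.54). Hspa13 was closest to Arf4 (0.69), Zranb2 (0.66) and Pnn (0.64). Hsph1 ran with Cox6a1 (probe set rc_AI104520_s_at, 0.74), Cox4i1 (0.73) and Ndufv2 (0.71). Hspd1 was nearest to Cox6a1 (another probe set, X72757_g_at, as for Hspa8, 0.73), Ndufc1 (0.66) and Ppib (0.66). For Hspb1 the closest was Chad (0.39) and for Hmox1 Brcc3 (0.40) and Ccl2 (0.39).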

How the data were processed

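Total RNA of 84 rat samples was measured on 244 arrays of 3 types; the members lie on type A (83 arrays). The deposited values are intensity values, 1 per probe set, already brought to a common level by the authors, since the 2 percent trimmed mean was 800.46 to 801.29 on all arrays. Which software made them is not stated in the labels. Groups came from titles, which were followed where descriptions differed (cortex injured 24 h, replicates 1 and 2, and the raphe sham at 30 min). From the deposited intensity, log2(value + 32) was taken. Probe sets above the 40th percentile of the array on at least 4 arrays of a region were tested, control probe sets left out.

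The model had 1 mean per group (limma 3.58.1, R 4.3.3, statmod 1.5.0). It was run per array type for raphe, for cortex and for both regions together, and the groups in a run shared 1 estimate of the spread. P-values were adjusted (Benjamini-Hochberg) over the 3 array types together, two-sided, with a threshold of 0.05. The steps were tested on simulated data. Alternatives were quantile normalization, added constants of 1 and 128, no filter or the 60th percentile, adjustment within a type, array weights, the replicate number as a block, other probe sets, each sample left out, and the samples in doubt or of conflicting time left out. The number of arrays, mainly the 2 sham samples per time, limits the precision.

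All 7 members are named, and of the wider lists up to 6 genes per comparison with the smallest p past the threshold, or 2 where none passed; genes called only without the samples in doubt were named after their values were seen. Members and lists were chosen with earlier results of these data known. Of the members 6 had a promoter in the RefSeq table and Hmox1 was not in it.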

Additional observations from a re-analysis of the deposited data

Results flagged for a closer look

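In 7 of 98 sets, each 1 member in 1 group of 4 samples, a value had a gap to the nearest other above 0.829 of the range. Chance gives such a value in about 1 in 20. The sets of different members share their samples. Hspa8 was low in cortex injured at 7 d replicate 4 (3014.6, the others from 19519 to 26927), in raphe injured at 14 d replicate 2 (7565.9, the others from 20054 to 23833) and in cortex injured at 24 h replicate 3 (10490.7, the others from 18172 to 19252). Hspd1 was low in the same cortex 7 d sample (1826.8, the others from 3838 to 4415) and high in cortex injured at 28 d replicate 2 (5576.2, the others from 4102 to 4284). Hspb1 was low in raphe naive replicate 3 (2116.2, the others from 3129 to 3294). Hmox1 was high in cortex injured at 14 d replicate 1 (460.8, the others from 317 to 336).

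Outside the comparisons, Hsph1 was 5962.7 in cortex sham at 30 min replicate 2, above the 5321.9 of the highest other cortex control.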

How the results depend on the processing

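Of the 24 counts of called members, most kept their value in all settings. The raphe count over 6 times (2) became 1 under the 60th percentile filter, where Hspa13 was not tested, 1 with the other Hsph1 probe set (difference 0.32 in place of -0.47) and 0 with the replicate block (adjusted p = 0.085 for Hspa13, 0.089 for Hsph1); leaving out single samples gave 0 to 2. At 7 d it was 0 under the 60th percentile filter and 0 to 1 over single samples. The naive regional count (2) became 4 over the 13 matched groups (added after seeing the data), 1 with the other Hmox1 probe set (-0.13), 1 with either of 2 other Hspb1 probe sets (-0.028 and -0.22), 1 with the replicate block, 3 with array weights (Hspd1), and 1 to 3 over single samples. Counts of 0 rose to 1 for injured against naive raphe (array weights, the other Hspa5 probe set, or without the samples in doubt; 0 to 1 over single samples), for raphe at 24 h without the samples in doubt and for sham against naive raphe with the other Hspa5 probe set; without the samples in doubt the latter was 2 (Hspa8 and Hspd1). Injured against naive cortex gave 1 with array weights (Hspa13) and 1 with the second Hspa8 probe set (-0.41, adjusted p = 0.048). Over single samples, cortex at 3 months and the raphe change over time gave 0 to 1, and the other counts stayed at 0. Of 22 pairs of an injured and a sham sample with equal number and time, 1 deviated together with a correlation over 0.1 (range -0.14 to 0.15). This does not test an effect of the number shared by all groups of a region, which the block takes out. Among all probe sets the raphe calls over 6 times went from 177 to 39 with the replicate block and to 875 without the samples in doubt. In the cortex 339 probe sets passed at 14 d and 463 at 3 months. Without the samples in doubt 1 cortex sham sample remains at each of these times. The causes were not tested. Hspa13 and the second probe sets of Hsph1 and Hmox1 lie near background.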
